A study of Homo sapiens with 6 samples.

Results

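Kinesins are motor proteins that walk along microtubules or shorten them, and the proteins named CENP build the centromere and the kinetochore, the structure through which chromosomes hold the spindle. The set was chosen by gene name, as every annotated symbol of KIF followed by a number or CENP followed by 1 letter, without antisense genes and pseudogenes. It held 56 genes, 38 kinesins and 18 centromere proteins, of the 19775 genes measured. Each gene was read by 1 probe set, the brightest of its own over all 6 arrays. CENPP and CENPS, 2 further names, were read only by probe sets shared with another gene and were not used. CENPJ is annotated under its newer symbol CPAP, which does not match the naming rule.

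Mitotic kinesins slide, push and depolymerise spindle microtubules, or bring about cytokinesis, and most of them are made in quantity only as cells approach division. Transport kinesins carry vesicles, mitochondria and other cargo and work in cells that do not divide. At the centromere, nucleosomes with the histone variant CENPA recruit a layer of CENP proteins that stays through the cell cycle, and CENPE and CENPF join the outer kinetochore in mitosis. Cell cycle genes of this kind are commonly switched on by B-MYB, FOXM1 and the MuvB complex, which binds a short promoter element called the cell cycle homology region.

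The series asked which genes RKIP, the product of PEBP1 and an inhibitor of Raf-1, regulates in breast cancer cells. RNA came from 1833 cells, a derivative of the breast cancer line MDA-MB-231 that is known for growing in bone, on Affymetrix 3' expression arrays. The control group (3 arrays) carried the vector, and the other group (3 arrays) was transduced with a lentiviral vector for the mutant S153E-RKIP and kept under puromycin. Both groups have 3 biological replicates per the labels, and nothing says whether these were separate transductions or cultures. The p-values therefore cover only the scatter among the samples at hand, some of which may be technical. In RNA from a whole culture, fewer cells in mitosis and less transcript per cell cannot be told apart.

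Values are log2 RMA signals, and every difference is S153E-RKIP minus control. PEBP1 had a difference of -0.093 (95% confidence interval -0.23 to 0.040), and HMGA2, for which the source name of the treated cells gives an shRNA, had one of -0.023 (-0.16 to 0.11). Neither gene bore out a label, so each direction rests on the label S153E-RKIP. Array medians ran from 5.60 to 5.67, and the second principal component of all genes (21.6% of the variance) parted replicate 1 of S153E-RKIP from the other replicates of its group. VIM and CD44, markers of mesenchymal-like breast cancer lines, had control means of 14.47 and 12.23. Of 4 genes that are low or absent in this line, CDH1 and PGR had 4.14 and 4.02, below the median of all genes (6.64). ESR1 lay at that median with 6.60, and ERBB2 above it with 7.72, so these levels alone do not show that either is absent.

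None of the 56 genes was called in the comparison of S153E-RKIP with control (limma, Benjamini-Hochberg adjusted p under 0.05 over all genes), where 1.9% of all genes were called, 0.688% as higher and 1.21% as lower. Before adjustment, 10 of the 56 (17.9%) had a p under 0.05, against 15.7% of all genes and 18.3% of those above the median level. Of these 10, 8 were lower on the arrays labelled S153E-RKIP and 2 higher. The largest difference of any member was -0.30, for CENPF, or 1.23-fold. The widest 95% confidence interval, that of CENPI, reached -0.63, and for 53 of the 56 genes the whole interval lay within 0.5 log2 units of 0, a 1.41-fold change. The arrays of the groups did not overlap for 15 members, or 26.8% against 20.1% of all genes. Among all genes above the median level, where 42 of the 56 lay, the share was 25.9%. There 1833 of 9888 genes were lower and 730 higher. Of the 15, 12 were lower (10.8% of all genes were) and 3 higher (9.31% of all genes). Over all genes 136 were called higher and 240 lower, or 116 and 355 once the arrays were set to equal medians. After quantile normalisation again the numbers were 151 and 183. With the trend of the differences with signal level removed they were 127 and 187.

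The groups of members differed in where they were centred. The median difference was -0.11 for the 12 mitotic kinesins, -0.037 for the 13 transport kinesins, 0.023 for the 13 other kinesins and -0.026 for the 18 centromere proteins. Over all genes it was 0.010. With equal array medians the value of the other kinesins was -0.014, while those of the mitotic kinesins, transport kinesins and centromere proteins kept their sign under every scaling tried. Whether the mitotic kinesins differed from the transport kinesins was not tested, since the members are genes and not replicates.

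**Figure D1:**
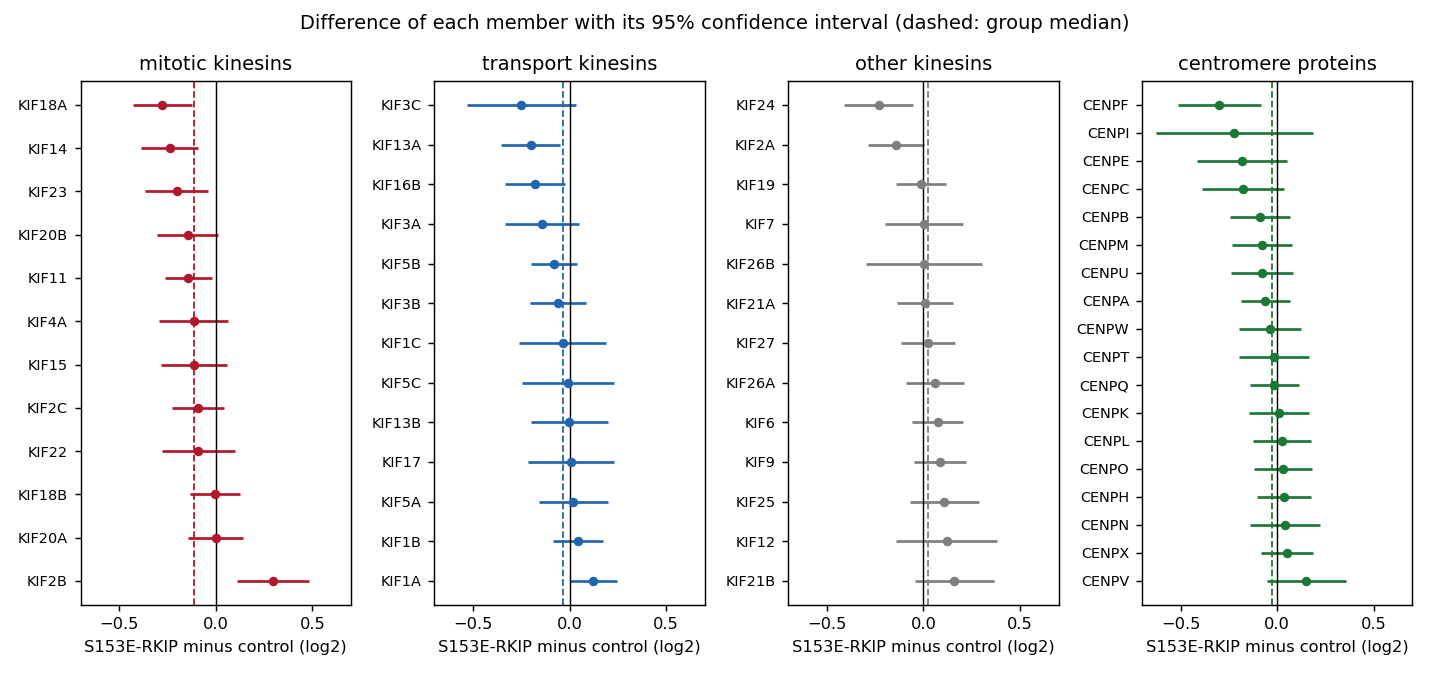
S153E-RKIP minus control in log2 units for each of the 56 genes, in 4 panels by role, with points for the difference, bars for its 95% confidence interval and a dashed line for the group median. The mitotic kinesins are centred at -0.11 with KIF2B alone above 0, and the transport kinesins at -0.037.

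Of the 12 mitotic kinesins, 11 had a difference below 0, and 9 did with the intensity trend removed or after quantile normalisation again, where KIF18B and KIF20A changed sign. Without control replicate 1 the number was also 9. No mitotic kinesin was called. At an unadjusted p under 0.05 there were 4 lower and 1 higher, and 6 had all S153E-RKIP arrays below all controls. The shares over all genes were 7.92% for lower and 7.75% for higher p-values, and 10.8% for lower groups without overlap. Among the 9888 genes above the median level, where 11 of the 12 lay, more genes were lower. Of these 9888, 1315 had a p under 0.05 and were lower, 498 were higher at that p, and 1833 were lower without overlap.

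KIF18A, a motor that damps the movement of chromosomes at the metaphase plate, stood nearest to the threshold. It had levels of 9.49, 9.32 and 9.37 in control replicates 1 to 3 and of 9.10, 9.06 and 9.19 in S153E-RKIP replicates 1 to 3. Every S153E-RKIP array lay below every control. The difference of -0.28 had an SE of 0.066, a 95% confidence interval from -0.43 to -0.13 and a limma adjusted p of 0.0929, and came to 1.21-fold. It was called in 2 of 15 alternative fits, with an adjusted p of 0.0387 by eBayes with trend and robust estimation and of 0.0388 among genes above the median level, and the adjusted p ran up to 0.302 over the others.

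KIF14 works at the midbody in cytokinesis. Its controls read 9.78, 9.71 and 9.72, and its S153E-RKIP arrays 9.39, 9.54 and 9.55. The groups did not overlap, and replicate 1 of S153E-RKIP was the lowest of all. The difference was -0.24 (SE 0.065, adjusted p = 0.138), and the second probe set of the gene gave -0.25 (adjusted p = 0.262 over all probe sets).

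KIF23 bundles microtubules of the central spindle as part of centralspindlin. Its levels were 10.15, 10.07 and 9.97 in control and 9.94, 9.88 and 9.77 in S153E-RKIP, so the highest S153E-RKIP array fell just short of the lowest control. The difference was -0.20 (SE 0.071, adjusted p = 0.231), with -0.18 on its other probe set.

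KIF11, the tetrameric motor that pushes spindle poles apart, had the tightest controls of the mitotic kinesins, at 10.70, 10.73 and 10.70. Its S153E-RKIP arrays read 10.56, 10.61 and 10.54. All were lower than any control, by a mean of 0.14 (difference -0.14, SE 0.053, adjusted p = 0.256).

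KIF2C, a depolymerase that frees wrongly attached microtubules at the centromere, read 12.05, 12.02 and 12.06 in control and 12.02, 11.88 and 11.95 in S153E-RKIP. The highest S153E-RKIP array came close to the lowest control. The difference was -0.092 (SE 0.058, adjusted p = 0.476), or -0.057 without S153E-RKIP replicate 2, and 0.011 on the second probe set of the gene.

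KIF2B, a relative of KIF2C in the same kinesin family, was the exception in direction. It read 4.12, 4.03 and 3.95 in control and 4.23, 4.28 and 4.48 in S153E-RKIP, with no overlap. The difference was 0.30 (SE 0.081, adjusted p = 0.138). Its level lay among the dim genes, and these files give no detection call. The median difference of the 3352 genes with a mean level from 4 to 5 was 0.063.

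The 6 remaining mitotic kinesins were KIF4A, KIF15, KIF18B, KIF20A, KIF20B and KIF22, which are described here with their values already seen. Of these, KIF20B alone had no overlap between groups (difference -0.14, adjusted p = 0.356), and KIF4A and KIF15 had -0.11 each. Without control replicate 1 these 3 had -0.092, -0.034 and -0.045. KIF20A, a cytokinesis motor, had a difference of -0.0012 with a 95% confidence interval from -0.14 to 0.14. KIF18B, a depolymerase of astral microtubules, had -0.0056 (-0.13 to 0.12). The intervals of these 2 genes leave out a difference as large as that of KIF18A.

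**Figure D2:**
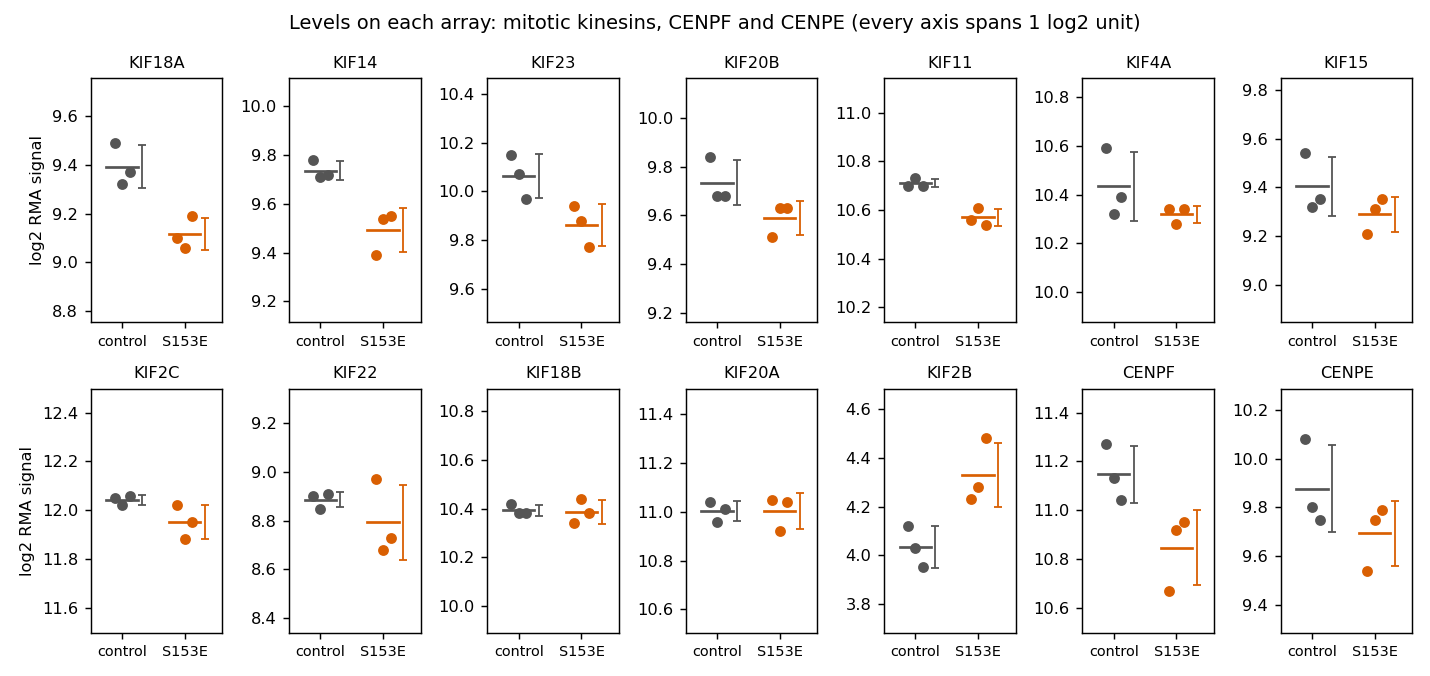
Log2 RMA signal on each array for the 12 mitotic kinesins, CENPF and CENPE, with points for arrays in replicate order, horizontal lines for group means and bars for the SD (n = 3), and with each axis spanning 1 log2 unit. KIF18A, KIF14, KIF23, KIF20B, KIF11, KIF2C and CENPF are lower on all S153E-RKIP arrays, KIF2B is higher, and KIF20A and KIF18B overlap.

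Promoters were compared because the mitotic kinesins share cell cycle control as background and were centred below the other groups. RefSeq windows of 250 bases before to 50 bases after the gene start (GRCh38.p14) were found for 47 of the 56 genes. They were searched on both strands for the cell cycle homology region as TTTGAA or TTCGAA. These letters were found in 9 of 12 mitotic kinesins (75%), 6 of 15 centromere proteins (40%), 1 of 9 other kinesins and 1 of 11 transport kinesins, and in 17.2% of 15384 genes measured. Positions count the first base of the gene as 0. A match from position -60 to the end of the window was found in the same 9 mitotic kinesins. It was also found in 5 of 15 centromere proteins (33.3%), 1 of 9 other kinesins and 0 transport kinesins, against 5.58% of all genes. E2F-like letters (TTCGCGC or TTCCCGC) were found in 0 of 12 mitotic kinesins, 5 of 15 centromere proteins and 13.8% of all genes, and no match of one motif overlapped a match of the other in the set.

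The last 80 bases before the start are shown for 5 mitotic kinesins and CENPA in which the match lies close upstream. They are written 5′ to 3′ on the strand of the gene, with the match in capitals. KIF22 also has a match close upstream, at position -27, and is not shown. A match written as TTCAAA is TTTGAA on the opposite strand. The genes lie at chr11:28108157-28108236 (minus strand) for KIF18A, chr10:92593050-92593129 (plus) for KIF11, chr15:69414269-69414348 (plus) for KIF23, chr3:44761714-44761793 (plus) for KIF15, chrX:70290024-70290103 (plus) for KIF4A and chr2:26785976-26786055 (plus) for CENPA.
KIF18A: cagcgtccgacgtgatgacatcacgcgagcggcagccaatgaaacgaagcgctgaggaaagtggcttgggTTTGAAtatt
KIF11: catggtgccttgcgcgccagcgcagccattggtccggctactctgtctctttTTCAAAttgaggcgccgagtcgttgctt
KIF23: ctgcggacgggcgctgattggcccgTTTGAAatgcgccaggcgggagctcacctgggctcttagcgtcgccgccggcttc
KIF15: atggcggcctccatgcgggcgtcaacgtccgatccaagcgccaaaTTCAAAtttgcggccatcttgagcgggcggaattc
KIF4A: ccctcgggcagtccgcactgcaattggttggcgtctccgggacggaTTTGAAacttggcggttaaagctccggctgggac
CENPA: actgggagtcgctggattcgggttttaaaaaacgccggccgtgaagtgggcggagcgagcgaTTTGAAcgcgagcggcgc

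The match begins at position -10 in KIF18A, -28 in KIF11, -55 in KIF23, -35 in KIF15, -34 in KIF4A and -18 in CENPA. These genes did not share 1 size of difference. KIF18A had -0.28 and KIF23 -0.20, while KIF15 and KIF4A had -0.11 each and CENPA -0.061. The median difference was -0.14 over the 9 mitotic kinesins with a match and -0.0012 over the 3 without one, KIF2B, KIF2C and KIF20A. These 3 had 0.30, at a dim level, -0.092 and -0.0012, so their median is the value of KIF20A alone. KIF18B, with a match at position 2, had -0.0056. A match is a run of letters in this window and says nothing of binding in these cells.

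**Figure D3:**
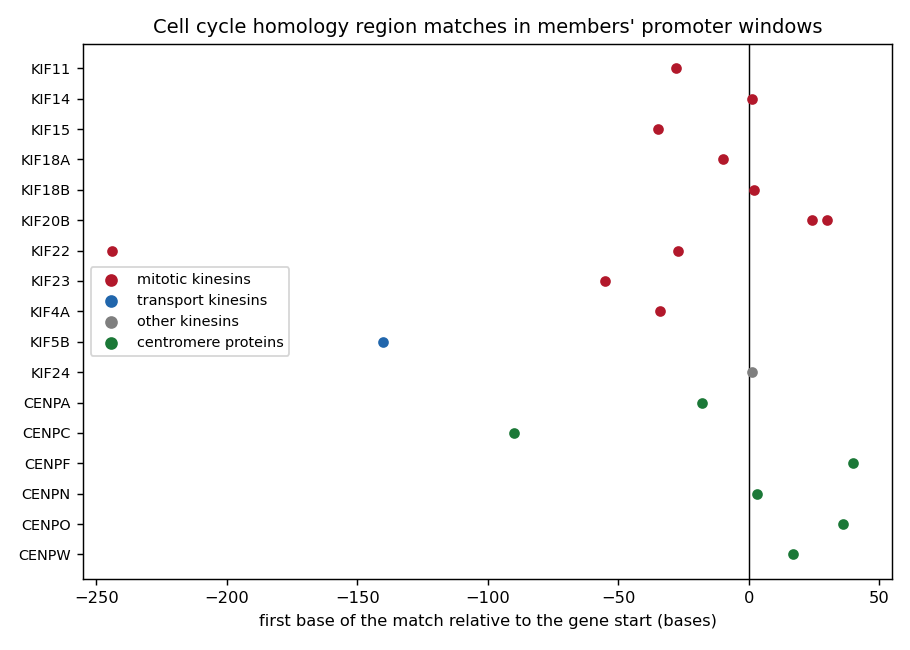
First base of each match to the cell cycle homology region, in bases from the gene start (0), for the 17 genes of the set with a match, coloured by role. In the mitotic kinesins at least 1 match of each gene lies from position -55 to 30, whereas the match of the transport kinesin KIF5B lies at -140.

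Transport kinesins had a smaller median shift. No gene of the 13 was called. At an unadjusted p under 0.05 there were 2 lower and 1 higher (23.1% against 15.7% of all genes). The groups did not overlap for 4 (30.8% against 20.1% of all genes), 3 of them lower. Of the 13, 9 (69.2%) had a difference below 0, against 46.4% of all genes. Among all genes above the median level, where 9 of the 13 lay, that share was 61.6%. With the mean of each gene's probe sets in place of the brightest, 7 were below 0 and the median was -0.00063.

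KIF13A carries endosomes and melanosome cargo. Its controls read 9.51, 9.68 and 9.57 and its S153E-RKIP arrays 9.33, 9.47 and 9.36, with no overlap. The difference was -0.20 (SE 0.067, adjusted p = 0.209). All 6 probe sets of the gene had a difference below 0, from -0.067 to -0.21.

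KIF16B moves early endosomes along microtubules. It read 6.65, 6.75 and 6.63 in control and 6.54, 6.40 and 6.56 in S153E-RKIP, again with no overlap, near the median level of all genes. The difference was -0.18 (SE 0.067, adjusted p = 0.255), and -0.060 with overlap on its second probe set.

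KIF3C, a subunit of heterodimeric kinesin-2 motors, had the largest negative value among transport kinesins but wide spread. Its levels were 8.33, 8.62 and 8.43 in control and 7.95, 8.28 and 8.41 in S153E-RKIP. The groups overlapped, and S153E-RKIP replicate 1 was the lowest. The difference was -0.25 (SE 0.12, adjusted p = 0.367), or -0.12 without that array, and the second probe set gave -0.048.

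KIF5B, the common conventional kinesin heavy chain, had narrow groups at 12.27, 12.28 and 12.30 in control and 12.18, 12.21 and 12.22 in S153E-RKIP. They did not overlap, yet the difference was only -0.082 (SE 0.052, adjusted p = 0.474). KIF5B serves most cell types, whereas KIF5A and KIF5C are the neuronal forms and had differences of 0.020 and -0.0085 at dim levels.

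KIF1A, a neuronal carrier of synaptic vesicle precursors, was the only transport kinesin without overlap in the upward direction. It read 6.62, 6.55 and 6.57 in control and 6.72, 6.71 and 6.69 in S153E-RKIP. The difference was 0.12 (SE 0.053, adjusted p = 0.317) and -0.029 on its second probe set.

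KIF1B, which carries mitochondria and vesicles, had probe sets that disagreed. Its brightest probe set read 9.25, 9.30 and 9.24 in control and 9.28, 9.28 and 9.36 in S153E-RKIP, with overlap and a difference of 0.043 (SE 0.056, adjusted p = 0.738), or 0.018 without S153E-RKIP replicate 3. The next brightest 2 gave -0.010 and -0.11. The dimmest one read 4.25, 4.02 and 4.17 in control and 4.72, 4.60 and 4.49 in S153E-RKIP. Tested by itself it had a difference of 0.46 (SE 0.085, adjusted p = 0.0493 over all probe sets). It was the only 1 of the 113 probe sets of these genes to pass, where 1.05% of all probe sets passed. Which transcripts of KIF1B each probe set reads was not examined.

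The 13 other kinesins hold motors of cilia, centrioles, signalling and microtubule ends. No gene of this group was called, and 9 lay below the median level of all genes. At an unadjusted p under 0.05 there was 1 (7.69% against 15.7% of all genes). KIF24, a centriolar depolymerase, read 4.14, 4.14 and 3.93 in control and 3.90, 3.74 and 3.86 in S153E-RKIP. The groups did not overlap at this dim level, and the difference was -0.23 (SE 0.078, adjusted p = 0.211). KIF21B, which restrains microtubule growth, had the largest positive value of the group. It read 5.35, 5.36 and 5.28 in control and 5.33, 5.46 and 5.68 in S153E-RKIP, with overlap and a difference of 0.16 (SE 0.089, adjusted p = 0.429). It was 0.064 without S153E-RKIP replicate 3 and 0.24 without S153E-RKIP replicate 1. KIF2A, the depolymerase of spindle poles and neurites, had -0.14 (adjusted p = 0.324, or -0.090 without S153E-RKIP replicate 3) with no overlap, and is named here with its value seen. It was placed in this group although its relatives KIF2B and KIF2C were counted as mitotic kinesins. The counts and medians of both groups depend on that choice. KIF7, a Hedgehog regulator at the cilium tip, had 0.0022.

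No centromere protein was called. CENPF alone of the 18 (5.56%) passed an unadjusted p of 0.05, against 18.3% of all genes above the median level. CENPF was also alone in having groups without overlap, against 25.9% of those genes. Of the 18, 11 (61.1%) had a difference below 0, against 61.6% of those genes. All 18 lay above the median level of all genes. The 12 measured proteins of the constitutive network that sits on the centromere throughout the cell cycle had a median difference of -0.0035, with 6 below 0 and 6 above. None of the 12 had groups without overlap, where 25.9% of all genes above the median level did.

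CENPF, a large kinetochore protein that accumulates towards mitosis, had the largest difference of the set. It read 11.27, 11.13 and 11.04 in control and 10.67, 10.92 and 10.95 in S153E-RKIP. The groups did not overlap, and S153E-RKIP replicate 1 lay lowest. The difference of -0.30 had an SE of 0.094, a 95% confidence interval from -0.51 to -0.086 and an adjusted p of 0.186. It was -0.21 without S153E-RKIP replicate 1, and down to -0.35 with another array left out. Its other probe sets gave -0.38 (adjusted p = 0.0862 over all probe sets) and -0.24, so all 3 pointed the same way.

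CENPE, the kinesin of the outer kinetochore that carries chromosomes to the spindle equator, read 10.08, 9.80 and 9.75 in control and 9.54, 9.75 and 9.79 in S153E-RKIP. The groups overlapped, with control replicate 1 the highest and S153E-RKIP replicate 1 the lowest. The difference was -0.18 (SE 0.10, adjusted p = 0.427). It was -0.083 without control replicate 1 and -0.11 without S153E-RKIP replicate 1, and down to -0.25 with another array left out.

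CENPA, the histone variant that marks the centromere, read 9.48, 9.56 and 9.55 in control and 9.49, 9.48 and 9.43 in S153E-RKIP. The groups overlapped. The difference of -0.061 had an SE of 0.055, a 95% confidence interval from -0.19 to 0.066 and an adjusted p of 0.623. CENPB, which binds a motif in centromeric repeats, had -0.091 and CENPC, which links the nucleosome to the kinetochore, had -0.18 (adjusted p = 0.543 and 0.392). Without S153E-RKIP replicate 3 they had -0.038 and -0.12. CENPB had -0.14 without S153E-RKIP replicate 1, and CENPC -0.28 without S153E-RKIP replicate 2.

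CENPV, named for the centromere but not part of the constitutive network, had the largest positive value of the centromere group. It read 8.31, 8.16 and 8.36 in control and 8.59, 8.30 and 8.38 in S153E-RKIP, with overlap. The difference was 0.15 (SE 0.089, adjusted p = 0.450), or 0.068 without S153E-RKIP replicate 1 and 0.090 without control replicate 2. CENPI, a network subunit, had the widest spread, with 8.26, 7.55 and 8.23 in control and 7.69, 7.75 and 7.94 in S153E-RKIP. Its difference of -0.22 (SE 0.18, adjusted p = 0.569) had a 95% confidence interval from -0.63 to 0.18. It was -0.099 without control replicate 1, -0.11 without control replicate 3 and -0.45 without control replicate 2. Its second probe set, of nearly the same level, gave -0.49 (unadjusted p = 0.0206, limma adjusted p = 0.286 over all probe sets), and its 2 dim ones gave 0.20 and -0.20. CPAP, the centriole protein once named CENPJ, had -0.045, and ITGB3BP, known as CENP-R, had -0.0072.

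Of the 56 genes, 32 had several probe sets, and in 17 of the 32 all of them had the same sign. The 57 dimmer probe sets had a difference below 0 in 31 cases. Over all 113 probe sets, 17 (15.0%) had an unadjusted p under 0.05, 14 lower and 3 higher, against 13.2% of all probe sets.

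The mitotic kinesins did not deviate evenly over the arrays. The median deviation of the 12 mitotic kinesins from each gene's mean over the 6 arrays was 0.11 on control replicate 1 and 0.017 and 0.014 on the other controls. It was -0.042, -0.077 and -0.041 on S153E-RKIP replicates 1 to 3. Control replicate 1 was the highest of the 6 arrays for 6 of the 12, and without it their median difference was -0.086 in place of -0.11. With each array left out in turn that median ran from -0.14 to -0.086. For transport kinesins the deviations were 0.027, 0.024 and 0.018 in control and -0.050, -0.017 and -0.028 in S153E-RKIP. For both groups every control median lay above every S153E-RKIP median, but not for the centromere proteins (0.047, -0.029 and 0.033 against 0.020, -0.044 and -0.0065).

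**Figure D4:**
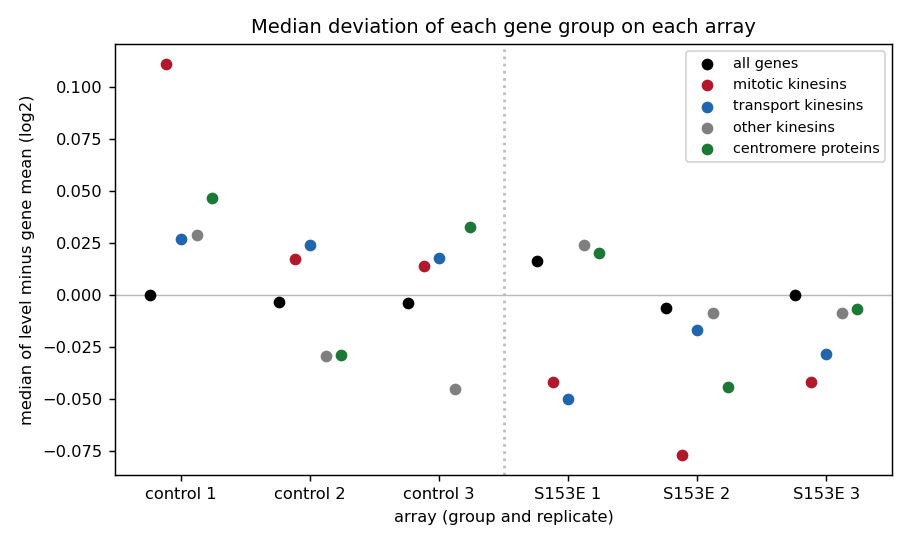
Median over the genes of each group of the level minus the gene's mean over the 6 arrays, in log2 units, 1 point per group and array. The mitotic kinesins are at 0.11 on control replicate 1, between 0.014 and 0.017 on the other controls and from -0.077 to -0.041 on the S153E-RKIP arrays, while all genes stay within 0.017 of 0.

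Differences over all genes also varied with signal level. The median was 0.061 for genes with a mean level from 5 to 6, -0.056 from 8 to 9, -0.040 from 9 to 10 and -0.030 from 10 to 11. Of all genes above the median level 61.6% had a difference below 0, as did all 11 mitotic kinesins above it. With the level trend removed by loess the median difference of the mitotic kinesins was -0.074 and that of the transport kinesins -0.040. How much of the shift the level trend accounts for was not tested further.

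**Figure D5:**
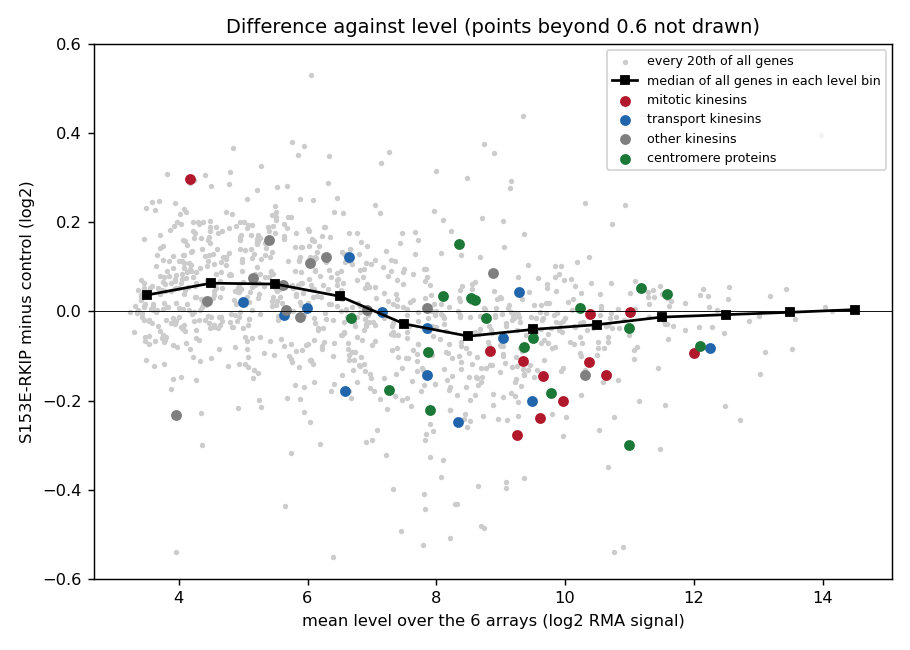
S153E-RKIP minus control (log2) against the mean level over the 6 arrays, with every 20th of all genes in grey, the median of all genes per level bin as black squares and the 56 genes coloured by role. Black squares lie above 0 at low levels and between -0.056 and -0.013 from level 7 to 12, and 11 mitotic kinesins lie at or below 0 there.

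Partners of these proteins were taken from lists of their pathways. Over 53 measured genes of kinetochore, CENPA loading, passenger complex, checkpoint, spindle, mitotic regulation and proliferation, 0 were called and 43 had a difference below 0. Their median was -0.059. Of the 53, 52 lay above the median level of all genes, and 81.1% had a difference below 0, against 61.6% of all genes above that level. The groups did not overlap for 14 (26.4%), against 25.9% of all genes above that level. Of the 14, 13 were lower and 1 higher, whereas 1833 of the 9888 genes above that level were lower and 730 higher. At an unadjusted p under 0.05 there were 3, all lower (5.66% against 15.7% of all genes and 18.3% of those above that level). These were KNL1, the kinetochore scaffold (-0.21), PRC1, the central spindle bundler (-0.16), and TOP2A, a topoisomerase of dividing cells (-0.13), all named with their values seen.

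NDC80, which grips microtubules at the kinetochore, had a difference of -0.12 (adjusted p = 0.387), and HJURP, which loads CENPA, had -0.12 (adjusted p = 0.413), or -0.073 without S153E-RKIP replicate 2. FOXM1, a transcription factor of mitotic genes, had -0.11 (adjusted p = 0.515), or -0.036 without control replicate 1. MKI67, the Ki-67 proliferation marker, read 10.94, 10.72 and 10.73 in control and 10.50, 10.69 and 10.76 in S153E-RKIP. Its groups overlapped, with a difference of -0.15 (adjusted p = 0.449). It was -0.080 without control replicate 1 and -0.076 without S153E-RKIP replicate 1. AURKB, the passenger kinase, had -0.010 (adjusted p = 0.966), and its sign changed after quantile normalisation again (0.031) and with the level trend removed (0.031).

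None of 12 genes listed as partners of transport kinesins passed the test, 0 did so even before adjustment (p under 0.05), and the median was -0.0037. The list holds light chains and cargo adaptors, and also KIFBP and the kinesins KIFC2 and KIFC3. Of 11 tubulins, the track of these motors, 1 was called. TUBA1A, an alpha-tubulin, read 11.42, 11.58 and 11.50 in control and 10.63, 10.91 and 10.83 in S153E-RKIP. All S153E-RKIP arrays lay below all controls, and it fell by 0.71 (SE 0.085, adjusted p = 0.00472), or 1.63-fold. The median of the 11 tubulins was 0.014. Alpha-tubulin genes are close copies, and how far the probe set of TUBA1A also reads its relatives was not examined.

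Markers of other cells were read beside these results. None of 6 blood cell markers was called (1 before adjustment), 6 of 6 had a difference above 0, and all lay below the median level of all genes. Their summed log2 levels ran from 32.2 to 32.3 in control and from 32.8 to 33.4 in S153E-RKIP. Of 7 measured fibroblast and osteoblast markers none was called (1 before adjustment) and 7 had a difference above 0, with sums of 41.4 to 41.7 and of 42.1 to 42.5. The 4 endothelial markers had sums of 21.2 to 22.0 and of 21.2 to 22.1. The 6 blood markers and 5 of the 7 fibroblast and osteoblast markers lay at levels where all genes also tended upward. The median difference of all genes was 0.037 from level 3 to 4, 0.063 from 4 to 5, 0.061 from 5 to 6 and 0.034 from 6 to 7. Of the fibroblast and osteoblast markers, RUNX2 and COL1A1 lay above the median level of all genes, with control means of 9.60 and 8.13. COL1A1 was higher without overlap, with a difference of 0.21 (limma unadjusted p = 0.0172, adjusted p = 0.215). The median of all genes from level 8 to 9 was -0.056. RUNX2 had a difference of 0.058, where the median of all genes from level 9 to 10 was -0.040. Of the endothelial markers PECAM1 lay above the median level, with a control mean of 7.21. PTPRC, DCN and CDH5 had 3.88, 5.57 and 3.84. The part of these markers in the differences above was not tested.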

How the data were processed

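The 6 samples were read on Affymetrix arrays, and the deposited values are log2 signals. The submitters' processing notes name RMA, without a version, as the authors' method. The table holds 54675 probe sets. The 62 control probe sets were left out, and gene names came from the platform annotation, where 41091 other probe sets have 1 symbol. RefSeq gene identifiers matched 41037 of these, and 0 symbols changed. No filter on dim genes was applied, so all 56 members entered.

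Groups came from sample titles. The difference was fitted for each of 19775 genes in limma 3.58.1 (R 4.3.3; lmFit, eBayes, two-sided), with Benjamini-Hochberg adjustment over all genes. The median standard error was 0.072, and the number of arrays limits this precision. On data simulated for this comparison over 19775 genes, 21 of 50 genes changed 1.3-fold were recovered, 43 of 50 at 1.5-fold and 50 of 50 at 2-fold and at 4-fold, with 10 of 19575 unchanged genes called.

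The members, role groups and lists were chosen with earlier results of these data known. Values on every array are given for the 10 members with the smallest p, the largest rise and fall in each role group, and CENPA, CENPE, CENPF, KIF11, KIF2C, KIF23, KIF5B and KIF1B. Other genes given with values were chosen after these were seen. Pathway genes were named if called, with MKI67, FOXM1, AURKB, HJURP and NDC80. Alternatives were other choices of probe set, scaling, filter, variance model and threshold, array weights, a replicate block, and each array left out in turn. Promoter sequences are RefSeq's, and protein sequences were not used here. Same-numbered arrays had correlated deviations of 0.13, 0.26 and -0.044 and were not treated as pairs. Figures were drawn with matplotlib 3.10.9.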

Additional observations from a re-analysis of the deposited data

How the results depend on the processing

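The directions of all 18 named members held in each of the 15 alternative fits, and 263 of 265 values stayed on their side of the threshold. The exceptions were the calls of KIF18A given above. The count of members called was 0 except for these, at 1 with eBayes trend and robust estimation and 1 among genes above the median level. Over all genes, 376 calls became 600 with trend and robust estimation, 147 at an adjusted p under 0.01 and 124 to 303 when 1 array was left out. Members with an unadjusted p under 0.05 numbered 5 to 13 when 1 array was left out, the lowest without control replicate 2 (5) and control replicate 1 (6). The replicate block gave 332 calls over all genes, 0 among members and 11 members with an unadjusted p under 0.05, and replicates 1 and 2 of each group correlated best with their own number while replicate 3 did not.

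With equal medians the median difference was -0.027 for all genes, -0.052 for members, -0.074 for transport kinesins, -0.014 for other kinesins and -0.063 for centromere proteins. With genes above the median level it was -0.029 for all genes, -0.070 for members and -0.061 for transport kinesins. Transport kinesins had -0.00063 with the mean of probe sets and -0.016 after quantile normalisation again. With 1 array left out, members ran from -0.059 to -0.013, transport kinesins from -0.076 to -0.022 and other kinesins from -0.0061 to 0.071. The cause was not tested.

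Signs turned on the second probe set of KIF1A (-0.029) and KIF2C (0.011), on the next 2 of KIF1B (-0.010 and -0.11), on the second of AURKB (0.041) and on the ninth of HMGA2 (0.016). AURKB was also above 0 with the intensity trend removed (0.031), the mean of probe sets (0.016), quantile normalisation again (0.031), and without S153E-RKIP replicate 2 or 3, with a range of -0.092 to 0.051 when 1 array was left out. HMGA2 was above 0 with the intensity trend removed (0.022), quantile normalisation again (0.025) and without S153E-RKIP replicate 1 (0.0034).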
